A study of Mus musculus with 768 samples.

Results

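The genes described here encode the enzymes and regulators of cholesterol, fatty acid and sphingolipid synthesis. They were taken as a list of 35 named genes, and all 35 have a row in the table of 32679 genes. By role they are 7 genes of the mevalonate pathway, 11 that turn farnesyl units into cholesterol, 2 regulators of sterol synthesis, 9 that make, desaturate or elongate fatty acids and 6 of sphingolipid synthesis. Single cells that carried GFP driven by the Nestin promoter, which neural stem cells and several other cell types use, came from the dentate gyrus of 8 Nestin:GFP mice, males of 2 months, by cell sorting. The tissue is labelled "AD" dentate gyrus, an abbreviation the labels do not spell out. All mice had 150 pmol of oligonucleotide in 3 µl with lipofectamine 2000 injected weekly for 5 weeks. Mice 1, 3, 5 and 7 received a negative control oligonucleotide and mice 2, 4, 6 and 8 a miR-132 mimic, an oligonucleotide made to act as this microRNA. The sort dates were 17 April 2018 for mice 1 to 4 and 19 April 2018 for mice 5 to 8, with both treatments on each date.

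Cells make cholesterol from acetyl-CoA by way of mevalonate, farnesyl diphosphate and squalene, and the transcription factor encoded by Srebf2 drives most genes of the pathway when sterols run low. Plasma cholesterol does not cross the blood-brain barrier, so the brain makes its own, and astrocytes and oligodendrocytes are its known main makers. Oligodendrocytes need large amounts of cholesterol, of very long fatty acids and of the sphingolipids galactosylceramide and sulfatide for myelin. In most other cells the main complex sphingolipid is sphingomyelin.

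Of 768 wells, 675 had at least 50000 counts and 1000 genes and were kept. A mouse gave 75 to 92 of them, and the median well held 646537 counts in 2741 genes. Clusters made without the lipid genes placed 44.6% of the kept wells in oligodendrocyte-like, 15.9% in endothelial-like and 14.1% (95 wells) in astrocyte-like clusters. There were also 71 pericyte-like, 38 neuroblast-like, 18 oligodendrocyte precursor-like, 12 smooth muscle-like and 16 fibroblast-like wells. Of the 12 oligodendrocyte markers, 11 had a count in at least 50% of oligodendrocyte-like wells, as had 12 of 12 astrocyte and 9 of 9 endothelial markers in their classes. Another 16 wells, 2 per mouse, had counts in 10045 to 11362 genes, where no other well passed 5015, and got no cell type. The labels give 94 cells sorted per mouse and do not say what these wells hold. The labels tie wells to mice in 2 ways, by the well names in each sample's description (used here) and by sample titles, and these agree on the mouse for 12.5% and on the treatment for 50% of wells. By titles the 16 wells would fall 4, 8 and 4 on mice 1, 2 and 6 and none on the others. Every comparison of treatments rests on this choice. Fitted treatment differences are given under both maps where both could be fitted, while levels and sums per mouse follow the descriptions, and in comparisons of classes it only moves wells between mice. Levels are CPM, a gene's count scaled to the total of its well, averaged over the wells of a mouse and then over mice, and levels of different genes are compared per kb of exon. The same amount of cDNA of each cell entered its library, so a CPM is a share of a cell's RNA and not an amount per cell. Means over mice are given ± SD, over 8 mice for oligodendrocyte- and astrocyte-like cells and 7 for endothelial-like cells, since mouse 1 had 4 endothelial-like wells and at least 5 were asked for. Fitted log2 differences are given ± SE and their adjusted p-values come from edgeR's quasi-likelihood test with Benjamini-Hochberg adjustment over all genes tested, called under 0.05. Each SE was derived from the fitted difference and its unadjusted p-value, so it is no separate measure of the spread among mice.

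The 3 large classes differed in which steps of lipid synthesis they carried. Summed over the 11 genes from squalene to cholesterol, astrocyte-like cells stood at 1811 ± 438 CPM (SD, n = 8 mice), oligodendrocyte-like cells at 817 ± 129.9 CPM (n = 8) and endothelial-like cells at 233.8 ± 99.3 CPM (n = 7). The means of the mevalonate sums had the same order, at 649 ± 277.98, 341.1 ± 81.4 and 144.5 ± 127.2 CPM. The fatty acid sum was instead highest in oligodendrocyte-like cells, at 4359 ± 664 CPM, against 2411 ± 534 CPM in astrocyte-like and 591 ± 253.5 CPM in endothelial-like cells. Scd2 alone made up most of the oligodendrocyte-like sum. Acaca, Fasn, Scd1 and Elovl5 had higher means in astrocyte- than in oligodendrocyte-like cells. The sphingolipid genes summed to 4013 ± 280.3 CPM in oligodendrocyte-like cells and 2353 ± 806 CPM in endothelial-like cells, but to 189.2 ± 95.3 CPM in astrocyte-like cells. A single gene, Sgms1, made up most of the endothelial-like sum.

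**Figure D1:**
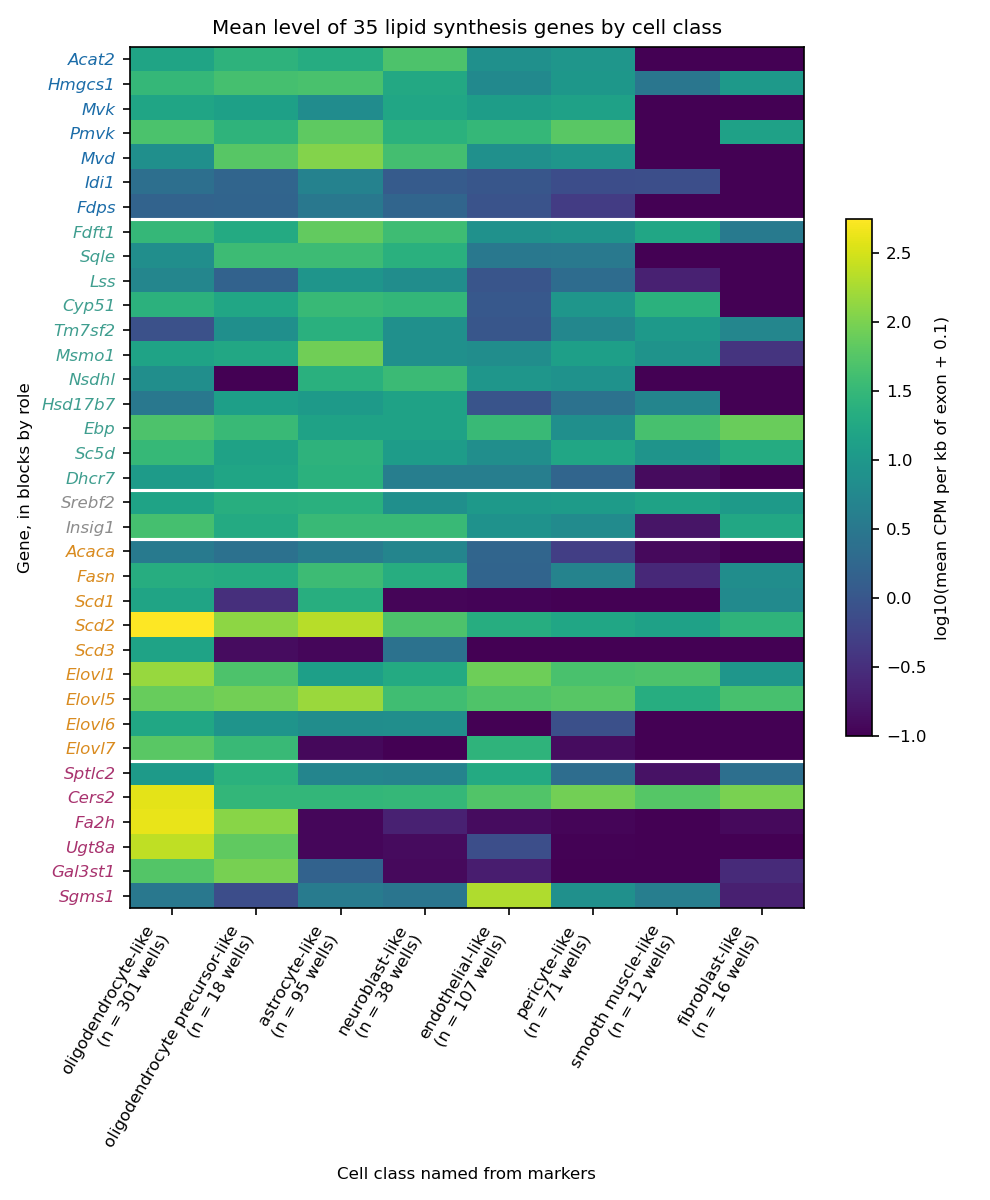
Heat map of the mean level over wells of the 35 genes (rows, in blocks by role: mevalonate, squalene to cholesterol, sterol regulators, fatty acids, sphingolipids) in 8 cell classes (columns), as log10 of CPM per kb of exon plus 0.1. Mvd, Sqle, Tm7sf2 and Msmo1 are brightest in the astrocyte-like column, Scd2, Cers2, Fa2h and Ugt8a in the oligodendrocyte-like column and Sgms1 in the endothelial-like column.

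Levels per length are given for each gene in the oligodendrocyte-, then the astrocyte- and then the endothelial-like class. In the mevalonate pathway, Acat2, the thiolase of the first step, stood at 15.04, 25.4 and 7.703 CPM per kb. Hmgcs1, which makes HMG-CoA, stood at 32.05, 48.5 and 2.86 CPM per kb. Mvk, the first mevalonate kinase, stood at 16.9, 5.88 and 12.9 CPM per kb. Pmvk, which adds the next phosphate, stood at 48.3, 58.9 and 32.4 CPM per kb. Mvd, the decarboxylase that makes isopentenyl diphosphate, stood at 7.54, 115.3 and 7.99 CPM per kb and was the member of this group with the clearest class difference. Idi1, the isomerase of that product, stood at 2.15, 4.57 and 1.297 CPM per kb, and Fdps, which joins the units to farnesyl diphosphate, at 1.47, 3.498 and 0.543 CPM per kb. Of the 50-base words in the transcripts of Fdps, 26.2% also occur in annotated transcripts of other genes, and the same holds for 25.3% of those of Idi1 and 39.1% of those of Acat2 (which shares them with Acat3 and Tcp1), so the levels of these 3 genes are uncertain.

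Between oligodendrocyte- and astrocyte-like cells of the same 8 mice, 1 of the 7 mevalonate genes passed the test. Across the oligodendrocyte-like cells of the mice, Mvd ran from 0 through a median of 13.6 to 33.8 CPM. In astrocyte-like cells it ran from 54.6 through a median of 185.8 to 459 CPM, so every astrocyte value lay above every oligodendrocyte value. Its fitted log2 difference, oligodendrocyte over astrocyte, was -3.62 ± 0.96, with an adjusted p of 0.0197 by edgeR's quasi-likelihood test with mouse as a block. With wells assigned by titles the adjusted p of Mvd was 0.05799. Mvk had the next smallest p, at 45.2 ± 32.4 CPM in oligodendrocyte-like and 15.7 ± 19.6 CPM in astrocyte-like cells, and it was not called (log2 3.36 ± 1.83, adjusted p = 0.239). The other 5 had fitted differences between -0.53 and 0.30. For Acat2 and Pmvk the fitted difference was above 0 while the mean CPM was higher in astrocyte-like cells.

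In the steps from farnesyl diphosphate to cholesterol, Fdft1, squalene synthase, stood at 32.03, 70.6 and 7.28 CPM per kb. Sqle, squalene epoxidase, stood at 6.76, 36.2 and 2.33 CPM per kb. Lss, which closes the ring to lanosterol, stood at 5.13, 8.297 and 0.7404 CPM per kb. Cyp51, the lanosterol demethylase, stood at 25.4, 34.8 and 0.807 CPM per kb, and Tm7sf2, a sterol reductase that acts just after it, at 0.794, 24.4 and 0.643 CPM per kb. The 3 enzymes that remove the remaining methyl groups of the ring all had their highest mean in astrocyte-like cells. Of these, the methylsterol oxidase Msmo1 stood at 14.5, 92.3 and 6.13 CPM per kb. Nsdhl, a sterol dehydrogenase, stood at 7.26, 21.3 and 3.81 CPM per kb. Hsd17b7, a ketoreductase, stood at 3.37, 12.1 and 0.694 CPM per kb. Nsdhl and Hsd17b7 were each higher in oligodendrocyte- than in astrocyte-like cells of 3 of 8 mice, and neither was called between these classes. Of the late enzymes, the sterol isomerase Ebp stood at 49.7, 12.3 and 28.3 CPM per kb. The sterol desaturase Sc5d stood at 33.2, 25.2 and 7.25 CPM per kb. Both had their highest mean in oligodendrocyte-like cells. Against astrocyte-like cells this order held in 8 of 8 mice for Ebp and in 5 of 8 for Sc5d, and edgeR called neither. Dhcr7, whose reduction of the ring yields cholesterol, stood at 11.996, 20.8 and 3.93 CPM per kb. Fdft1 overlaps Ctsb on the opposite strand over 18.3% of its exonic bases, and the libraries do not keep the strand. Tm7sf2 overlaps Vps51 on the same strand over 12.1%. Of the 50-base words of Fdft1, 26.5% also occur in annotated transcripts of other genes, so its level is uncertain too.

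Msmo1, Tm7sf2, Sqle and Fdft1 were lower in oligodendrocyte-like than in astrocyte-like cells, and none of the 11 was called higher by edgeR. In oligodendrocyte-like cells Msmo1 ran from 48.8 through a median of 94.5 to 116.2 CPM. In astrocyte-like cells it ran from 275.2 through a median of 486 to 1091 CPM, with no overlap between the classes. The ratio of its means was 6.38 in favour of astrocyte-like cells, and the fitted log2 difference was -2.34 ± 0.32 with an adjusted p of 3.91e-04. Tm7sf2 ran from 0 through a median of 2.49 to 8.42 CPM in oligodendrocyte-like cells and from 10.5 through a median of 101.03 to 248.7 CPM in astrocyte-like cells, a ratio of means of 30.7. Its fitted log2 difference was -5.43 ± 1.62 (adjusted p = 0.0337). It had a count in 4.98% of oligodendrocyte-like and 35.8% of astrocyte-like wells. Sqle averaged 37.5 ± 17.1 CPM against 200.9 ± 127.1 CPM (adjusted p = 0.0351), and Fdft1 135.4 ± 30.9 CPM against 298.2 ± 46.9 CPM (adjusted p = 0.0388). The calls of Tm7sf2, Sqle and Fdft1 were lost when single mice were left out. Tm7sf2 was lost without mouse 1, 2, 3, 5 or 7. Sqle, which was lower in 7 of 8 mice, was lost without mouse 2, 4, 5, 6 or 8, and Fdft1 without mouse 1, 2, 3, 4, 6 or 8. The other 7 genes had fitted differences between -1.13 and 2.92, the upper end being Ebp. Ebp ran from 94.2 through a median of 107.1 to 167.1 CPM in oligodendrocyte-like and from 0 through a median of 30.7 to 62.1 CPM in astrocyte-like cells, was higher in oligodendrocyte-like cells of 8 of 8 mice with no overlap, and had an adjusted p of 0.08703 by edgeR and 0.00587 by DESeq2, which called it.

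Promoters are shown for Mvd and Msmo1, which edgeR called lower in oligodendrocyte- than in astrocyte-like cells, and for Ugt8a and Elovl7, which it called higher. That of Hmgcs1, not called between these classes, is shown for its motifs. Of the 35 genes, 29 have a promoter in the RefSeq table used here (GRCm38.p6, 250 bases before to 50 after the start). The letters CCAAT, the core of the box bound by the factor NF-Y, occur on either strand in a promoter of 23 of these 29 genes (79.3%), against 41.1% of 27025 genes in the table. They occur in 16 of 17 sterol genes (all but Acat2), 3 of 7 fatty acid genes and 4 of 5 sphingolipid genes. Among genes called higher in oligodendrocyte-like cells, Elovl1, Cers2 and Gal3st1 hold CCAAT, while Scd3, Elovl7 and Ugt8a do not. The letters TCACNCCAC, a form of the sterol regulatory element, occur in 1 of the 29, Hmgcs1, against 1.44% of all genes searched. The promoters of Hmgcs1, Mvd and Msmo1 are printed with those of Ugt8a and Elovl7, which hold neither motif, with matches to either motif in capitals and the rest in lower case, each 5′ to 3′ along the gene. A capital ATTGG is CCAAT read on the other strand.
Hmgcs1 promoter (GRCm38.p6, chr13:119690101-119690400, plus strand): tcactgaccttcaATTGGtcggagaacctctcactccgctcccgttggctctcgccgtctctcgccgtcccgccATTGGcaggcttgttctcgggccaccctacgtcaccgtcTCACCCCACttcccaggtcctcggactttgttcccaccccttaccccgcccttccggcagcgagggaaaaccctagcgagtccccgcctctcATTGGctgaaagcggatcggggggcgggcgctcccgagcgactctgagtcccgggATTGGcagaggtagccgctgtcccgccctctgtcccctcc
Mvd promoter (GRCm38.p6, chr8:122443373-122443672, minus strand): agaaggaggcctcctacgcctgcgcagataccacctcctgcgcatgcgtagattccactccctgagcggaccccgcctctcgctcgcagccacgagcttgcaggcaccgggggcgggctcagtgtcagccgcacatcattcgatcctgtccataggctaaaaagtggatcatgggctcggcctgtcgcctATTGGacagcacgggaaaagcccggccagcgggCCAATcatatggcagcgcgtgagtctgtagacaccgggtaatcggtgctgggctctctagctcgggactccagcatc
Msmo1 promoter (GRCm38.p6, chr8:64733529-64733828, minus strand): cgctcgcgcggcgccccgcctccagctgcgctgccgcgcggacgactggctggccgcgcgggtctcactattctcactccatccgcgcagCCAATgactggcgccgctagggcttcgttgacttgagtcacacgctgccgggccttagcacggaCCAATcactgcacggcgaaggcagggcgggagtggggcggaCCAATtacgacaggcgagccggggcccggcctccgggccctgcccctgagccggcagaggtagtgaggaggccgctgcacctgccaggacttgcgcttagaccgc
Ugt8a promoter (GRCm38.p6, chr3:125938603-125938902, minus strand): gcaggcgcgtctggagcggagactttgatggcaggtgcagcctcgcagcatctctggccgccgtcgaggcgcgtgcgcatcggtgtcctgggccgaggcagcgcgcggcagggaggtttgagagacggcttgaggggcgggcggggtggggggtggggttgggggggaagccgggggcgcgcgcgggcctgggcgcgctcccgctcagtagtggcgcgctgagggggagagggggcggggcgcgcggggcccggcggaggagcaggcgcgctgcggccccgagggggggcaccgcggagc
Elovl7 promoter (GRCm38.p6, chr13:108214154-108214453, plus strand): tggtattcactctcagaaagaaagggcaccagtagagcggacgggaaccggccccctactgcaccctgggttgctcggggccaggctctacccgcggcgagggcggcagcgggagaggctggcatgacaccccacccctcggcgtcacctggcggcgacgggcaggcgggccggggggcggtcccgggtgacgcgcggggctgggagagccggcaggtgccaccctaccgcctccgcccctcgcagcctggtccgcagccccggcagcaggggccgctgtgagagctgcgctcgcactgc
Hmgcs1 holds 4 CCAAT matches and the sterol element, Msmo1 3 and Mvd 2. A match describes the letters of the window and is no measurement of binding.

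The regulators were not called between these classes. Srebf2, which encodes the sterol-sensing transcription factor, stood at 15.2, 23.7 and 10.01 CPM per kb. Insig1, which holds that factor in the endoplasmic reticulum when sterols are plentiful, stood at 44.3, 31.9 and 10.7 CPM per kb. Srebf2 ran from 58.6 through a median of 102.6 to 160.8 CPM in oligodendrocyte-like cells and from 67.3 through a median of 142.4 to 291.4 CPM in astrocyte-like cells (log2 -0.24 ± 0.34, adjusted p = 0.663). Insig1 averaged 137.1 ± 29.6 CPM against 98.7 ± 79.6 CPM (log2 1.30 ± 0.82, adjusted p = 0.302).

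Among the fatty acid genes, Acaca, the carboxylase of the committed step, stood at 3.19, 3.61 and 1.7 CPM per kb. Fasn, fatty acid synthase, stood at 21.1, 38.7 and 0.9998 CPM per kb. The 3 desaturases, which lie close together on chromosome 19, were used very differently. Scd1 stood at 14.8, 20.3 and 0.00536 CPM per kb, Scd2 at 534, 226.98 and 19.5 CPM per kb and Scd3 at 14.3, 0.0146 and 0 CPM per kb. Scd2 had the highest level of all 35 genes in oligodendrocyte-like cells. The elongases differed as well. Elovl1, which extends saturated very long chains, stood at 149.9, 12.7 and 61.04 CPM per kb. Elovl5, which extends polyunsaturated chains, stood at 75.2, 146.7 and 45.5 CPM per kb. Elovl6, which extends palmitate, stood at 16.3, 5.43 and 0 CPM per kb. Elovl7, another elongase of saturated chains, stood at 62.9, 0.0225 and 29.3 CPM per kb. Of the 50-base words of Acaca, 30.4% occur in other annotated transcripts, against 6.57% for Scd3, 4.56% for Scd1 and 3.97% for Scd2.

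Scd2, Scd3, Elovl1 and Elovl7 were higher in oligodendrocyte-like than in astrocyte-like cells, and no fatty acid gene was called lower. Elovl7 ran from 183.2 through a median of 251.9 to 326.4 CPM in oligodendrocyte-like cells and had 3 counts in all 95 astrocyte-like wells together. The ratio of pooled CPM was 4435, with a 95% counting interval of 1518 to 21508, an interval that covers counting error only. Its fitted log2 difference was 12.44 ± 0.97 (adjusted p = 4.99e-06), a size that depends on the small count the fit adds to zeros. Scd3 ran from 18.5 through a median of 47.6 to 106.6 CPM in oligodendrocyte-like cells and also had 3 counts in astrocyte-like cells. Its ratio of pooled CPM was 939 (95% counting interval 321.4 to 4556), with a fitted log2 difference of 10.18 ± 1.13 (adjusted p = 7.40e-05). Scd3 was found in fewer oligodendrocyte-like wells than Elovl7, 31.2% against 72.8%. Scd2 averaged 2919 ± 668 CPM against 1240.2 ± 289.1 CPM, a ratio of 2.35 (adjusted p = 6.04e-04). Elovl1 averaged 409 ± 103.5 CPM against 34.5 ± 26.6 CPM, a ratio of 11.8 (adjusted p = 0.0181). Fasn and Elovl5 leaned the other way. Elovl5 was lower in oligodendrocyte-like cells of 8 of 8 mice, at 265.03 ± 67.8 CPM against 517 ± 193.7 CPM, and missed the threshold at an adjusted p of 0.09798, which it passed when samples were scaled by library size or by relative log expression. Fasn averaged 230.8 ± 50.05 CPM against 424 ± 223.5 CPM and was lower in 7 of 8 mice (adjusted p = 0.486). The other 3 had fitted differences between 0.31 and 3.39.

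In sphingolipid synthesis, Sptlc2, a subunit of the serine palmitoyltransferase that starts the pathway, stood at 10.6, 4.64 and 17.2 CPM per kb. Cers2, the ceramide synthase for very long chains, stood at 392.2, 30.1 and 51.7 CPM per kb. Fa2h, which hydroxylates the fatty acid of myelin sphingolipids, stood at 415, 0.0196 and 0.0363 CPM per kb. Ugt8a, which makes galactosylceramide, stood at 239.9, 0.0196 and 0.455 CPM per kb, and Gal3st1, which turns it into sulfatide, at 56.2, 0.821 and 0.06501 CPM per kb. Sgms1, sphingomyelin synthase, ran opposite to these and stood at 3.27, 3.71 and 191.6 CPM per kb.

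The enzymes of the galactosylceramide branch separated oligodendrocyte-like from astrocyte-like cells in every mouse. Fa2h ran from 1061 through a median of 1232 to 1386 CPM in oligodendrocyte-like cells and had 2 counts in all astrocyte-like wells together, a ratio of pooled CPM of 33199 (95% counting interval 9190.5 to 274140). It had a count in 98.7% of oligodendrocyte-like wells (95% exact Clopper-Pearson interval 96.6 to 99.6%) and in 2.11% of astrocyte-like wells (0.256 to 7.399%), at median depths of 705410 and 577020 counts. Thinned to 50000 counts a well, the shares were 98.7% and 0%. The fitted log2 differences were 15.04 ± 0.80 for Fa2h (adjusted p = 4.23e-07) and 13.99 ± 0.88 for Ugt8a (adjusted p = 9.77e-07). Ugt8a ran from 795 through a median of 1177 to 1251 CPM in oligodendrocyte-like cells, against 4 counts in all astrocyte-like wells. Cers2 averaged 1442 ± 141.3 CPM against 110.6 ± 73.9 CPM (adjusted p = 1.93e-05) and Gal3st1 114.7 ± 35.3 CPM against 1.68 ± 4.02 CPM (adjusted p = 7.66e-04). These 4 genes are expressed in myelinating cells, as the naming markers are, but they were left out of the clustering. Sptlc2 and Sgms1 had fitted differences of 1.59 and 0.78 and were not called.

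**Figure D2:**
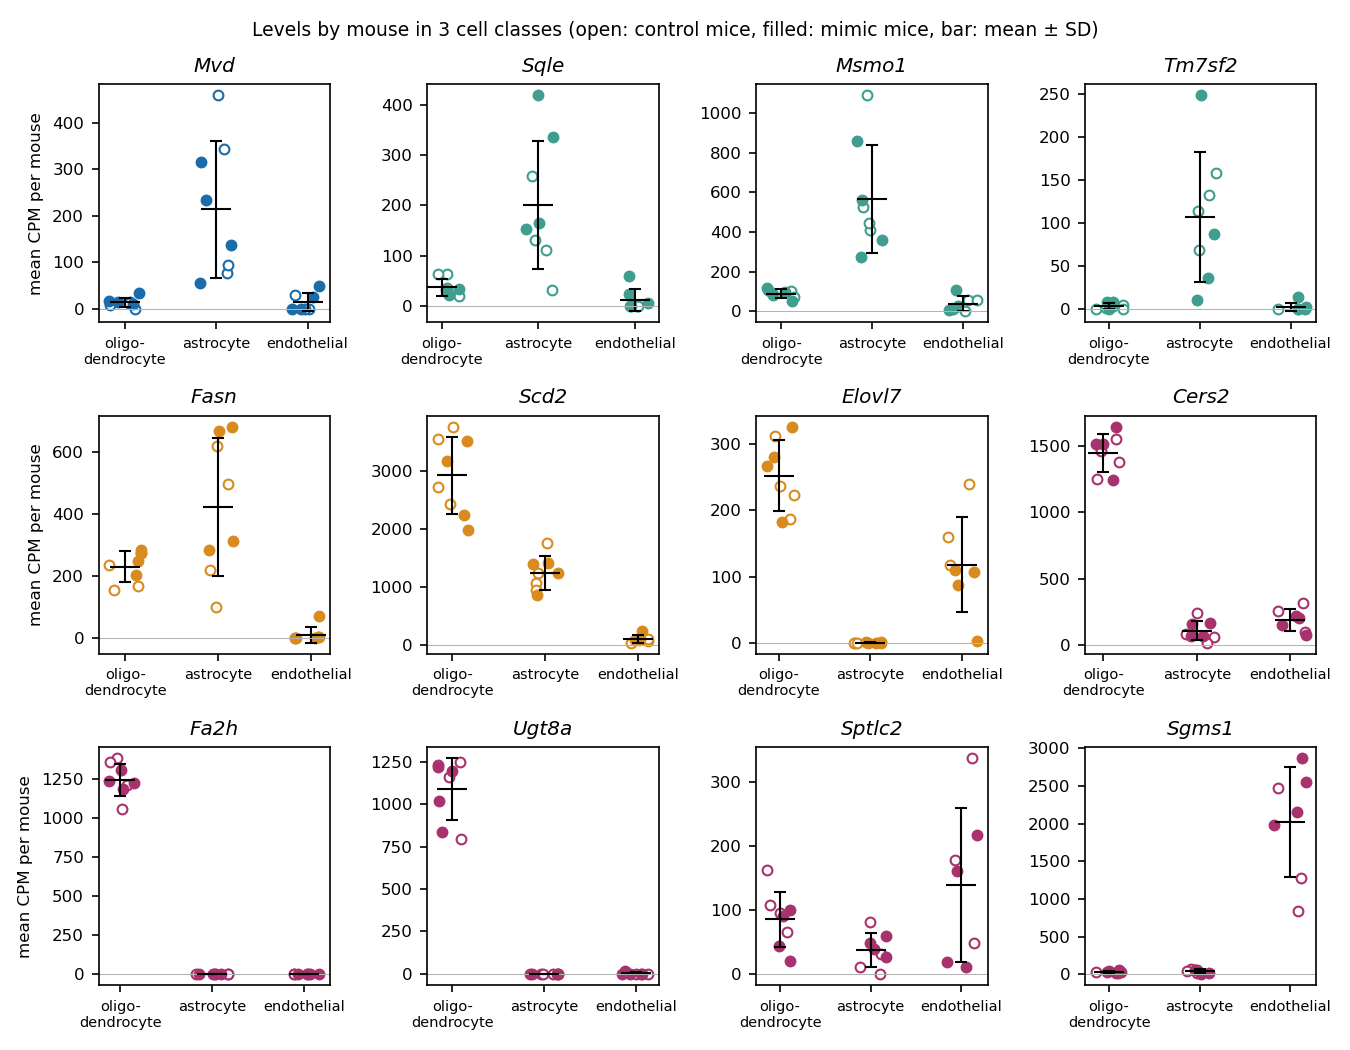
Mean CPM per mouse of 12 of the genes in oligodendrocyte-, astrocyte- and endothelial-like cells (mice with at least 5 such wells, 8, 8 and 7 mice), 1 point a mouse, open for control and filled for mimic mice, with mean ± SD over mice. Fa2h and Ugt8a lie near 0 in the astrocyte- and endothelial-like classes, Sgms1 is high in the endothelial-like class alone among the 3, and Sptlc2 overlaps across them.

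In all, 13 of the 35 genes differed between oligodendrocyte- and astrocyte-like cells, against 20.8% of the 10170 genes tested. Of these, 8 were higher in oligodendrocyte-like cells (background 13%) and 5 lower (background 7.84%). The 35 genes were chosen with earlier results of these data known. A share above the background is therefore no independent test of the list, here and in the other comparisons of classes. By edgeR, all 8 that were higher belong to fatty acid or sphingolipid synthesis and all 5 that were lower to cholesterol synthesis, while DESeq2 added Ebp and Elovl6 as higher and Elovl5 as lower. The same 13 were called under both other scalings. The median fitted log2 difference over all genes tested was 1.03, and it moved to 0.801 with scaling by relative log expression and to 0.6796 by library size alone. The median over the 35 was 0.296, 0.0614 and -0.0398 in these fits, each below that of all genes.

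Endothelial-like cells had the lowest summed levels of sterol and fatty acid genes of the 3 classes and the highest level of Sgms1. Against them, 16 of the 35 genes differed in oligodendrocyte-like cells of 7 mice (background 24.3% of 9903 genes). Of these, 15 were higher (background 16.4%) and 1, Sgms1, was lower (background 7.88%). The median fitted log2 difference was 3.53 over the 35 and 1.36 over all genes, which other scalings moved to 1.204 and 0.889. Sgms1 ran from 843 through a median of 2152 to 2867 CPM in endothelial-like cells. In oligodendrocyte-like cells it ran from 15.9 through a median of 35.7 to 62.5 CPM. The fitted log2 difference, oligodendrocyte over endothelial, was -5.34 ± 0.40 (adjusted p = 9.17e-06), and endothelial-like cells were higher in 7 of 7 mice. Sgms1 had a count in 97.2% of endothelial-like and 23.9% of oligodendrocyte-like wells. Sptlc2, the other sphingolipid gene not tied to the galactosylceramide branch, averaged 139.3 ± 120.1 CPM in endothelial-like cells and was not called against either class.

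Of the 20 sterol genes, edgeR called 4 higher in oligodendrocyte-like cells, a share near the background of 16.4%, and 0 lower. DESeq2 called 9 more, all higher. Of the mevalonate genes, Hmgcs1 averaged 147.6 CPM in oligodendrocyte-like and 13.2 CPM in endothelial-like cells of the same 7 mice, with a fitted log2 difference of 8.12 ± 2.27 (adjusted p = 0.0275). Fdps was not called (2.57 ± 0.90, adjusted p = 0.0652), and the other 5 had fitted differences between 2.3 and 3.91. Among these 5, Mvd was higher in oligodendrocyte-like cells of only 3 of 7 mice. From squalene on, Cyp51 averaged 112.9 against 3.56 CPM (log2 9.76 ± 2.08, adjusted p = 0.00751) and Lss 55.1 against 7.99 CPM (log2 9.89 ± 2.34, adjusted p = 0.0128). The other 9 were not called, with fitted differences between 2.08 and 8.30. Endothelial-like cells of 4 mice had no count of Cyp51 or of Hmgcs1 and those of 5 mice none of Lss, so these fitted sizes depend on the small count the fit adds to zeros. Without the mouse block Hmgcs1 and Lss were not called, and Hmgcs1 was lost without mouse 2, 3, 4 or 7 as well. Insig1 averaged 140.7 against 33.1 CPM (log2 3.22 ± 0.98, adjusted p = 0.0381), a call that both other scalings ended, as did leaving out mouse 3, 4, 5, 6 or 8. Srebf2 was not called (log2 1.98 ± 1.11, adjusted p = 0.244). Of the 9 fatty acid genes, 7 were higher in oligodendrocyte-like cells. Scd2 averaged 2799.8 against 106.7 CPM (log2 5.32 ± 0.47, adjusted p = 2.51e-05). Scd1 averaged 68.98 CPM against 2 counts in all endothelial-like wells of the 7 mice (log2 11.92 ± 1.38, adjusted p = 1.73e-04). Scd3 and Elovl6 had no count in those wells, so that they were at least 1052-fold and at least 2076-fold higher in oligodendrocyte-like cells, taking 3 counts over the whole group as the floor. Elovl7 was called higher here too (log2 2.19 ± 0.60, adjusted p = 0.0251), with 117.7 ± 71.8 CPM in endothelial-like cells. Scaling by library size, or leaving out mouse 3 or 8, ended that call. The call of Elovl5 (log2 1.22 ± 0.37, adjusted p = 0.0367) ended under both other scalings and without mouse 2, 3, 4, 5, 7 or 8. Fa2h had 6 counts in endothelial-like cells (log2 14.02 ± 0.81, adjusted p = 1.79e-06), and Cers2, Ugt8a and Gal3st1 were higher in oligodendrocyte-like cells as well.

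Between astrocyte- and endothelial-like cells of 7 mice, 29 of the 35 genes passed the filter on low counts, and 15 differed (background 16.7% of 8612 genes). Of these, 13 were higher in astrocyte-like cells (background 9.86%) and 2, Sgms1 and Elovl7, were lower (background 6.8%). Scd1, Scd3, Elovl6, Fa2h, Ugt8a and Gal3st1 were not tested. The 13 comprised 2 mevalonate genes, 8 of the 11 genes from squalene to cholesterol and 3 fatty acid genes, and the same 15 were called under both other scalings. Hmgcs1 averaged 232.7 against 13.2 CPM (log2 8.45 ± 2.16, adjusted p = 0.01898) and Mvd 179.5 against 14.8 CPM (log2 7.79 ± 2.07, adjusted p = 0.0229). Cyp51 averaged 136.7 against 3.56 CPM (log2 9.67 ± 2.06, adjusted p = 0.00673) and Msmo1 492 against 37.6 CPM (log2 4.95 ± 1.07, adjusted p = 0.00747). The regulators Insig1 (log2 2.27 ± 1.29, adjusted p = 0.323) and Srebf2 (log2 2.11 ± 1.24, adjusted p = 0.344) were not called. Scd2 averaged 1166 against 106.7 CPM (log2 3.81 ± 0.46, adjusted p = 1.33e-04) and Fasn 395.7 against 10.9 CPM (log2 8.80 ± 1.52, adjusted p = 0.00194). The fitted sizes of Hmgcs1, Mvd, Cyp51 and Fasn lie well above the ratios of their mean CPM. For Hmgcs1 and Cyp51, endothelial-like cells of several mice had no count, so those sizes depend on the small count added to zeros. Sgms1 averaged 36.2 CPM in astrocyte-like cells (log2 -6.37 ± 1.02, adjusted p = 0.001103), and Cers2 was not called (log2 -0.90 ± 0.70, adjusted p = 0.516). Without the mouse block, 11 genes were called, 9 of them among the 15, and Hmgcs1, Mvd, Sqle, Lss, Nsdhl and Hsd17b7 were lost. Without mouse 3 there were 10, and the genes lost without 1 mouse or another were Hmgcs1, Mvd, Fdft1, Tm7sf2, Nsdhl and Hsd17b7. The comparisons of classes share cells: the oligodendrocyte-, astrocyte- and endothelial-like wells each enter 2 of them.

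**Figure D3:**
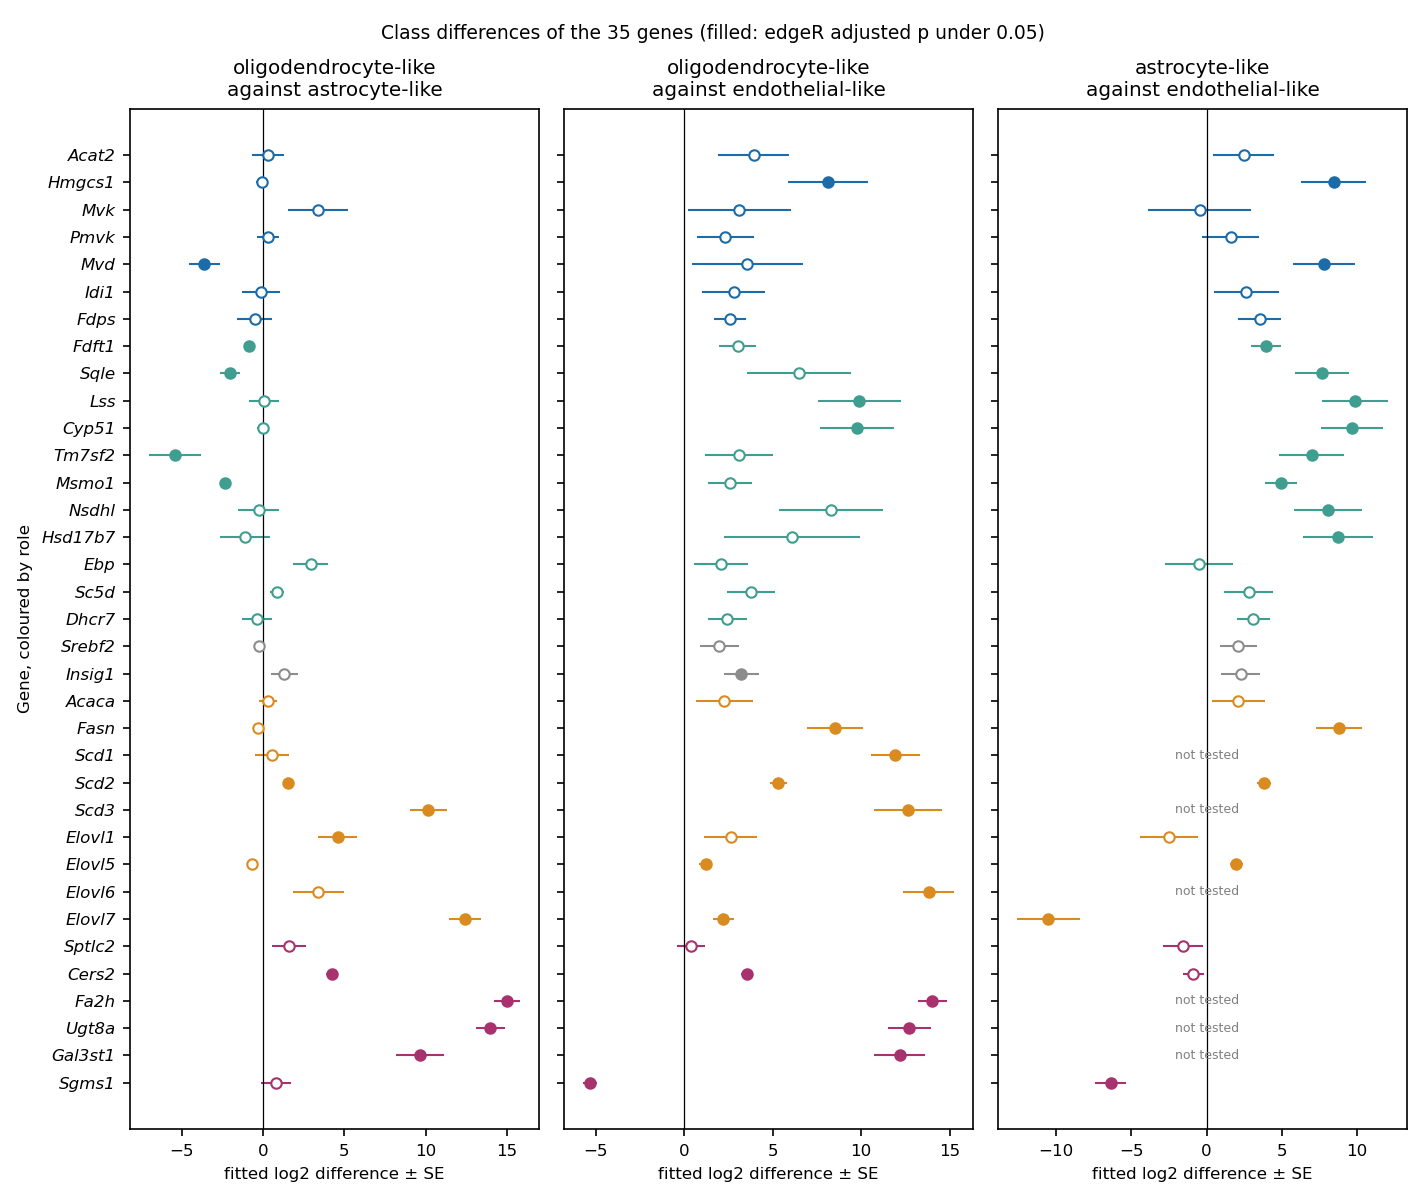
Fitted log2 difference ± SE (horizontal axes) of the 35 genes (rows, coloured by role) in the 3 comparisons of classes, with filled points for an edgeR adjusted p under 0.05. The called cholesterol genes lie left of 0 in the first panel and right of 0 in the third, while Sgms1 lies left of 0 in both comparisons with endothelial-like cells; bars are widest for genes without a count in several mice.

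The smaller classes are described with no test between classes, by means over wells except for pericyte-like cells, since few mice had 5 wells of the others. Oligodendrocyte precursor-like cells (18 wells) also had counts of the galactosylceramide branch. Fa2h stood at 356.1 CPM there, with a count in 13 of 18 wells, Ugt8a at 302.5 CPM in 14 and Gal3st1 at 191.4 CPM in 11. In oligodendrocyte-like wells the same means were 1235, 1088 and 113.5 CPM, so of these 3 Gal3st1 had the higher mean in the precursor-like wells. The oligodendrocyte markers summed to 13285 CPM in precursor-like wells, against 97465 CPM in oligodendrocyte-like wells and 279.98 CPM in astrocyte-like wells, and the part of that sum in these levels was not tested. Cers2, at 111.1 CPM, was near its astrocyte-like mean of 111.4 CPM. The precursor-like wells also had Sqle at 205.7 CPM and Hmgcs1 at 201.3 CPM, close to the astrocyte-like means of 205.4 and 214.3 CPM, but Scd1 at 1.08 CPM and Scd3 at 0.1199 CPM.

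Neuroblast-like cells (38 wells) carried sterol genes without the galactosylceramide branch. Acat2 stood at 125.5 CPM, the highest mean of any class, and Nsdhl at 101.8 and Acaca at 83.9 CPM were the highest of any class as well. Fa2h, Ugt8a and Gal3st1 stood at 0.355, 0.124 and 0.0515 CPM. Of the desaturases they had Scd2, at 273.8 CPM, with Scd1 at 0.0524 CPM. Pericyte-like cells (71 wells) resembled endothelial-like cells in their low sterol sum, 368.01 ± 133.1 CPM (SD, n = 8 mice), with Sgms1 at 95.4 ± 75.1 CPM and Cers2 at 352.9 ± 311.2 CPM. In fibroblast-like wells (16) Ebp reached 181.7 CPM, the highest mean of any class, with 0 counts of Sqle, Lss, Cyp51 and Nsdhl, and each 0 of 16 wells allows a share of up to 20.6% of wells with a count (exact 95% Clopper-Pearson limit).

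Within the oligodendrocyte-like class, 92 wells formed a cluster with higher immediate early genes, led by fold by Egr2 and Arc, and the other wells a further cluster. Among the leading genes of the latter by fold were 3 microglia markers that came from 1 well, and the class comparisons called 13 and 16 of the 35 genes without that well too. Of the 35 genes, 0 differed between the clusters over 7 mice by edgeR (background 0.0433% of 9235 genes), 2 had an unadjusted p under 0.05, and DESeq2 called 2, Insig1 and Hsd17b7. Insig1 averaged 172.1 ± 48.1 CPM (SD, n = 7) in the cluster with higher immediate early genes and 119.98 ± 29.6 CPM (n = 8) in the other, and was higher in 7 of 7 mice with both. The sphingolipid sums were 3882 ± 376.1 and 4033 ± 306.5 CPM and those from squalene to cholesterol 800.3 ± 164.9 and 822 ± 142.8 CPM. From well to well within the class, Spearman's rho between pairs of the 35 genes had a median of 0.041 over 595 pairs and ran from -0.152 to 0.315, which in such sparse counts is given as a description only. The 16 many-gene wells stood at 861 ± 96.8 CPM from squalene to cholesterol, 3260.4 ± 393.9 CPM for fatty acid and 2997 ± 323.8 CPM for sphingolipid genes (SD, n = 8 mice). They held both Fa2h, at 779 ± 93.9 CPM, and Sgms1, at 184.5 ± 91.2 CPM.

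Other genes of these pathways were counted from 4 further lists, to be read against the 13% of all genes that were higher and 7.84% that were lower, near which the sphingolipid list lay. The comparison is that of oligodendrocyte-like with astrocyte-like cells. Among other sterol genes, Acly, which supplies acetyl-CoA, was higher (log2 2.40 ± 0.51, adjusted p = 0.006295). Of 19 genes of cholesterol uptake, transport and removal, 6 were higher and 7 lower. The lipoprotein gene Apoe was lower (log2 -2.06 ± 0.17, adjusted p = 6.49e-06), as was Clu, which is also a naming marker of astrocytes and no test of the class (log2 -7.85 ± 0.53, adjusted p = 1.72e-06), and the transporter gene Abca2 was higher (log2 3.27 ± 0.27, adjusted p = 8.58e-06). Of 21 other fatty acid genes, 1 was higher and 11 were lower. These were led by the acyl-CoA synthetase gene Acsl3 (log2 -3.13 ± 0.29, adjusted p = 2.09e-05) and the fatty acid transporter gene Slc27a1 (log2 -4.16 ± 0.41, adjusted p = 2.94e-05) on the astrocyte side, with Acsl1 on the oligodendrocyte side (log2 11.85 ± 1.27, adjusted p = 5.50e-05). The astrocyte side also held the polyunsaturated chain enzymes Fads1, Fads2 and Elovl2. Of 23 other sphingolipid genes, 3 were higher, Degs1, the desaturase that makes ceramide (log2 2.06 ± 0.27, adjusted p = 2.52e-04), Cerk, ceramide kinase (log2 6.78 ± 1.27, adjusted p = 0.00283), and Ormdl1, an inhibitor of serine palmitoyltransferase (log2 8.36 ± 2.10, adjusted p = 0.0152, not called without the mouse block), and 1, Asah1, was lower.

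The mature 3p strand of miR-132 is shown with its seed, bases 2 to 8, in capitals, as RefSeq lists it (GRCm38.p6, chr11:75173723-75173744, plus strand). The labels do not state which strand of miR-132 was mimicked.
mmu-miR-132-3p: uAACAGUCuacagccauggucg
Sites complementary to the seed were searched in the longest annotated 3′ UTR of each gene. Of the 35 genes, 8 hold a site of at least 7 bases (22.9%), against 17.8% of 21020 genes, and 0 hold the 8-base form. Cyp51, Elovl6 and Elovl7 hold the 7-base form that pairs with the whole seed, shown 5′ to 3′ with the site in capitals and flanking bases in lower case.
Cyp51 site: gattaaagtttgaaGACTGTTt
Elovl6 site: agaagataaccacaGACTGTTg
Elovl7 site: aaaaaaaaagaataGACTGTTg
In all kept wells the fitted log2 difference, mimic over control, was -0.25 ± 0.30 for Cyp51, -0.06 ± 0.22 for Elovl6 and 0.00 ± 0.18 for Elovl7, none of them called. By titles these were 0.15 ± 0.19, 0.60 ± 0.24 and -0.07 ± 0.17, none called either.

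None of the 35 genes was called between mimic and control mice by edgeR with the filter on low counts in any of the 6 sets of wells given here. Without that filter edgeR called Sgms1 over all kept wells. Over all kept wells 34 of the 35 passed the filters (Mvd did not), 0 were called (background 0% of 8823 genes), 2 had an unadjusted p under 0.05, and the median was -0.08, with 13 of 34 above 0. By titles the median was 0.11, with 23 of 34 above 0 and 4 at an unadjusted p under 0.05, so the direction of the median turned. DESeq2 called 1 of them, Sgms1 (background 0.17%). In oligodendrocyte-like, astrocyte-like, endothelial-like and pericyte-like cells and in the many-gene wells 32, 29, 17, 11 and 34 genes were tested, with 0 called by edgeR or DESeq2 in each (background 0% of the genes tested by edgeR) and 1, 0, 0, 0 and 2 at an unadjusted p under 0.05. With wells assigned by titles, 0 were called as well, the many-gene wells not being testable in that map. Summed over the sphingolipid genes, oligodendrocyte-like cells stood at 4019 ± 292.8 CPM in control and 4007 ± 312.3 CPM in mimic mice (SD, n = 4 each). The sum from squalene to cholesterol was 1722 ± 317.02 CPM in control and 1900.1 ± 570.3 CPM in mimic astrocyte-like cells. Mice of 1 group are separate animals, and the fits include the sort date.

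Sgms1 had the smallest p over all kept wells. It stood at 100.97, 102.7, 392.7 and 310.2 CPM in control mice 1, 3, 5 and 7. In mimic mice 2, 4, 6 and 8 it stood at 208.3, 541, 599 and 688 CPM. Mimic mouse 2 lay within the control range and the other 3 above it, and within each sort date both mimic mice lay above both control mice. The fitted log2 difference was 1.25 ± 0.30, with an adjusted p of 0.835 by edgeR, 1.21e-04 by edgeR without the filter on low counts and 0.0487 by DESeq2, and by titles it was -0.12 ± 0.18. The endothelial-like share of wells, the class that carries this gene, was 12.1 ± 7.65% in control and 19.5 ± 8.31% in mimic mice (SD, n = 4 each), and within each sort date it too was higher in both mimic mice than in both control mice. Outside endothelial-like wells Sgms1 averaged 38.4 ± 9.498 CPM in control and 45.8 ± 12.5 CPM in mimic mice, with overlapping ranges. Within endothelial-like cells, where it also had the smallest p, it stood at 843, 2473 and 1282 CPM in control mice 3, 5 and 7 and at 1979.6, 2867, 2152 and 2550.5 CPM in the mimic mice (log2 0.79 ± 0.37, and -0.04 ± 0.18 by titles, adjusted p = 0.999). Control mouse 1 had 4 such wells and was left out of that fit.

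Scd3 had the next smallest p over all wells and the smallest in oligodendrocyte-like cells, the class that carries it. In oligodendrocyte-like cells it stood at 43.9, 106.6, 67.05 and 58.7 CPM in control mice. In mimic mice it stood at 30.6, 51.4, 18.5 and 28.5 CPM, and mimic mouse 4 lay within the control range. Of the 2 sort dates, the groups overlapped on the first and did not on the second. The fitted log2 difference was -1.16 ± 0.37 (adjusted p = 0.999), and -0.29 ± 0.48 by titles. Over all wells it was -1.32 ± 0.43, and -0.10 ± 0.46 by titles (adjusted p = 0.9997), with an oligodendrocyte-like share of 48.5 ± 14.7% in control and 41.1 ± 9.23% in mimic mice. Its neighbour Scd2 differed by -0.20 ± 0.22 in oligodendrocyte-like cells, and by 0.09 ± 0.08 by titles. Lss (log2 -0.66 ± 0.31, and 0.15 ± 0.32 by titles) stood at 56.96 ± 9.39 CPM in control and 38.4 ± 9.63 CPM in mimic mice. Elovl5 (log2 0.30 ± 0.18, and 0.12 ± 0.15 by titles) stood at 238.7 ± 40.1 CPM and 302.5 ± 31.2 CPM. Neither difference passed the threshold.

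In astrocyte-like cells Acat2 had the smallest p, at 249.9, 68.1, 66.6 and 36.02 CPM in control and 22.7, 0, 20.2 and 53.6 CPM in mimic mice. The control mean rested on mouse 1 (log2 -2.23 ± 1.54 and 0.63 ± 0.97 by titles, adjusted p = 0.9996). In pericyte-like cells Cers2 had the smallest p, at 311.2, 153.7, 130.9 and 233.3 CPM in control and 164.6, 1084, 339.03 and 407 CPM in mimic mice (log2 1.00 ± 0.71, and 0.12 ± 0.59 by titles). In the many-gene wells it was Acaca, at 94.002, 41.1, 31.5 and 121.9 CPM in control and 24.4, 49.7, 22.8 and 26.5 CPM in mimic mice (log2 -1.33 ± 0.55, adjusted p = 0.9998). In each of these the ranges of control and mimic mice overlapped.

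**Figure D4:**
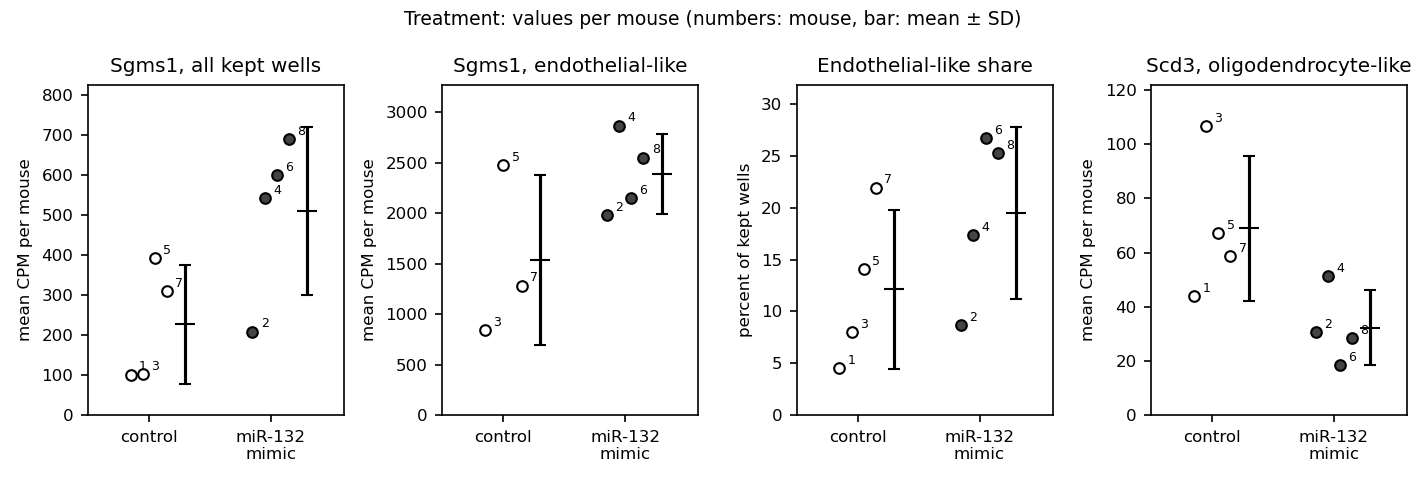
Values per mouse in control (open) and mimic (filled) mice, numbered by mouse, with mean ± SD: Sgms1 in all kept wells and in endothelial-like wells (CPM), the endothelial-like share (percent of kept wells) and Scd3 in oligodendrocyte-like wells (CPM). Control and mimic points overlap in each panel.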

How the data were processed

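Cells were sorted into plates, amplified by Smart-seq2 with biotinylated oligo-dT primers and made into libraries with Nextera XT, per the labels' protocols. The authors deposited raw counts of reads per gene for 768 wells. The submitters' processing notes name FastQC, STAR, Subread, featureCounts 1.5.1, Seurat 2.3.1 and the build mm10, and the counts hold no molecular identifiers and no strand. Wells with at least 50000 counts and 1000 genes were kept, and the 43889169 to 66897586 summed counts per mouse set the precision. They were clustered with scanpy 1.11.5 (2000 variable genes, 20 components, 15 neighbours, Leiden resolution 1), without 129 lipid genes, and clusters were named from marker lists. Wells of over 6000 genes entered the clustering but were left out of the naming. In their cluster fell 1 well below that limit, which got no name either. No doublet caller was run. Counts were summed per mouse, or per mouse and class where a mouse had at least 5 wells, and tested with edgeR 4.0.16 (TMM, filterByExpr, quasi-likelihood, two-sided), with the sort date as covariate for treatment and the mouse as block between classes of the same animals. In treatment fits a gene also needed a count in 10% of wells. The tests were tested on simulated data. DESeq2 1.42.0 was an alternative, as were other scalings, filters, maps of wells and clusterings. The rule for genes named with statistics took the 2 of smallest p per role and class comparison, the 3 of smallest p in each other lipid list, and for treatment the 4 of smallest p over all kept wells and the 1 of smallest p in each class and in the many-gene wells. Other genes given with statistics, the further called genes and Ebp, Elovl5, Fasn, Cyp51, Elovl6, Elovl7 and Scd2 where named beside these, were chosen after their values were seen. The 35 genes and all lists were chosen with earlier results of these data known. Part of the results for the list of other sterol genes is not reported here.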

Additional observations from a re-analysis of the deposited data

Results flagged for a closer look

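In 8 of 72 groups of 4 mice tested, 1 mouse lay further from the others than Dixon's 95% limit allows. For normal values chance gives this in about 1 in 20 independent groups. The groups here share wells, and the single genes among them were picked by their treatment p. The count of 8 is therefore no measure of an excess. Summed from squalene to cholesterol over all kept wells, mimic mouse 4 stood at 571 CPM, against 849 to 865 CPM in the other 3 mimic mice. In astrocyte-like cells control mouse 1 had 2193 CPM, against 1504 to 1619 CPM in the other 3 control mice. For the fatty acid sum in astrocyte-like cells, mimic mouse 2 had 1803 CPM, against 2759 to 2950.4 CPM in the other 3 mimic mice. In pericyte-like cells control mouse 3 had a sum from squalene to cholesterol of 675 CPM, against 343.8 to 389.6 CPM in the other 3 control mice. Mimic mouse 4 had a sphingolipid sum in pericyte-like cells of 1189 CPM, against 350.2 to 481 CPM in the other 3 mimic mice. In the many-gene wells mimic mouse 8 had a sum from squalene to cholesterol of 961 CPM, against 748 to 776 CPM in the other 3 mimic mice. Acaca in the many-gene wells reached 49.7 CPM in 1 mimic mouse, mouse 4, against 22.8 to 26.5 CPM in the other 3. Acat2 in astrocyte-like cells reached 249.9 CPM in control mouse 1, against 36.02 to 68.1 CPM in the other 3 control mice.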

How the results depend on the processing

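Counts of called lipid genes held within 1.5 times under most alternatives. The exceptions were DESeq2, which called 1 in mimic against control over all kept wells, 25 in oligodendrocyte- against endothelial-like cells and 2 between the oligodendrocyte-like clusters, and the fit with no low-count filter, which called 1 over all kept wells. Both calls over all wells were Sgms1. Leaving out each mouse in turn gave 10 to 12 called in oligodendrocyte- against astrocyte-like cells, 13 to 16 in oligodendrocyte- against endothelial-like cells and 10 to 15 in astrocyte- against endothelial-like cells. Without the mouse block, which pairs classes of the same animal, the counts were 13, 16 and 11, with 13, 14 and 9 of the called genes shared. With wells assigned by titles, 4 treatment differences of genes named by the rule changed sign. Over all kept wells they became -0.12 for Sgms1 and 0.15 for Lss. In astrocyte-like cells Acat2 became 0.63 and in endothelial-like cells Sgms1 became -0.042. Beyond the rule, Cyp51 and Elovl6 over all kept wells and Scd2 in oligodendrocyte-like cells changed sign too. So did the median over the lipid genes tested in all kept wells. The cause was not tested. Of the other values of genes named by the rule, 868 kept direction and side of the threshold, 34 lost the call and 5 gained it. Over all genes, DESeq2 called 4418 against 2118 by edgeR in oligodendrocyte- against astrocyte-like cells, 4826 against 2405 in oligodendrocyte- against endothelial-like, 3289 against 1435 in astrocyte- against endothelial-like cells and 517 against 4 between the oligodendrocyte-like clusters. In mimic against control it called 15, 3, 31, 37, 16 and 1 in all wells, oligodendrocyte-, astrocyte-, endothelial-, pericyte-like cells and many-gene wells, where edgeR called 0 and edgeR with no low-count filter 84, 18, 2, 8, 1 and 25. The many-gene wells could not be tested by titles, which leave 5 mice without them. Means over few wells limit what small classes show. The 2 alternatives on the well with microglia markers and on single oligodendrocyte-like clusters were chosen after seeing the data and called the same number of genes.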
